A study of Rattus norvegicus with 4 samples.

Results

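The mature microRNAs named miR-18a, miR-19a, miR-19b, miR-25, miR-92a and miR-92b were examined in extracellular vesicles (EVs), the small membrane particles that cells release with RNA inside. All names that start with one of these microRNA names and the rat prefix were taken as members, both hairpin arms included, which gave 14 of the 836 names listed in either of 2 deposited tables. The 4 EV libraries were 2 of RMT1, a rat breast cancer line whose vesicles were collected from culture supernatant by ultracentrifugation, 1 of PC12 titled EVd and 1 of PC12 titled EVu. PC12 is a rat line from a tumour of the adrenal medulla that makes catecholamines, and the letters d and u are not explained in the labels. The labels name no treatment or genotype. They do not state whether the RMT1 pair stems from separate cultures, so the spread behind each p-value is that between these samples and may be technical. Nor do they say that both lines were prepared together, so cell line and preparation batch cannot be told apart.

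Most of these microRNAs are cut from shared primary transcripts. The miR-17/92 transcript, which the transcription factor Myc induces, carries miR-17, miR-18a, miR-19a, miR-20a, miR-19b and miR-92a in that order, and a related transcript on chromosome X carries second copies of miR-19b and miR-92a. miR-25 lies with miR-93 and miR-106b inside Mcm7, a gene of DNA replication, and miR-92b has a transcript of its own. Each hairpin gives a 5p and a 3p arm, and usually one of them is loaded into Argonaute while the other decays. The loaded arm finds its target mRNAs through its seed, bases 2 to 8 from the 5′ end. miR-19 is known as the part of the miR-17/92 cluster that drives lymphoma in mice, and miR-92a as a brake on blood vessel growth.

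All 14 members matched a RefSeq mature sequence (GRCr8). The main arms are shown first because the results below divide them by seed and by cluster, with the seed in capitals and miR-20a-5p of the miR-17 seed family for comparison.
rno-miR-25-3p: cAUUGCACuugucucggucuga
rno-miR-92a-3p: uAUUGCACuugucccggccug
rno-miR-92b-3p: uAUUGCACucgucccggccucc
rno-miR-19a-3p: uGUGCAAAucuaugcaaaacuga
rno-miR-19b-3p: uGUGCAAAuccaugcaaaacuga
rno-miR-18a-5p: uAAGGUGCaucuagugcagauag
rno-miR-20a-5p: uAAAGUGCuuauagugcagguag
miR-25-3p, miR-92a-3p and miR-92b-3p share 1 seed and miR-19a-3p and miR-19b-3p another, while miR-18a-5p has its own. Counting from 1 at the 5′ end, miR-19b-3p differs from miR-19a-3p at 1 of 23 bases (U11C), and miR-92b-3p from miR-92a-3p at 2 of 21 shared positions (U10C and G21C). miR-25-3p differs from miR-92a-3p at 3 of 21 (U1C, C14U and C18U). Such close sequences can trade reads if mismatches were allowed in counting, which is not given in the sources used here.

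The miR-25 hairpin is shown whole, with both mature arms in capitals and the 5p arm first, because its arms went opposite ways between the cell lines.
miR-25 hairpin: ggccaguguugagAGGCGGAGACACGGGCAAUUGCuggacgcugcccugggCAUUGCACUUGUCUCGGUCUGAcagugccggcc

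In the coordinates of the PC12 table, which names no genome build, miR-25-3p lies on chromosome 12 from 21364981 to 21365002 on the minus strand, in a stretch of 472 bases with miR-93 and miR-106b. On the plus strand of chromosome 15, 762 bases hold miR-18a-5p (103641054 to 103641076), miR-19a-3p (103641233 to 103641255), miR-19b-3p (103641540 to 103641562) and miR-92a-3p (103641656 to 103641676). miR-19b-3p and miR-92a-3p are listed a second time on chromosome X, so counts of these mature sequences cannot be assigned to one transcript. miR-92b-3p lies on chromosome 2 from 207955690 to 207955711 on the minus strand. In RefSeq Mir25 stands within Mcm7, and the hairpins on chromosomes 15, X and 2 lie within no protein-coding gene.

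The table of all 4 libraries held 799224 and 716940 counts for RMT1 EV 1 and 2, 338233 for PC12 EVd and 436840 for PC12 EVu, over 762 names. A floor of 3 counts, the most that a count of 0 allows, stands for 3.75, 4.18, 8.87 and 6.87 CPM (counts scaled by the library total) in that order, and floors and intervals cover counting error only. The RMT1 pair differed by more than sampling noise (chi-square 6.80 per degree of freedom over 177 names) and was kept as 2 samples. The labelled cell types matched their markers in part. A list of 4 mammary epithelial names summed to 10862 and 10615 CPM in RMT1, against 53.2 in EVd and 68.7 in EVu. A list of 4 neuroendocrine names summed to 24264 CPM in EVd and 27053 in EVu, with miR-124-3p at 0 in EVu, and to 1485 and 1576 in RMT1, where only miR-7a-5p was above 0. The let-7 names took 68.9% and 68.6% of the RMT1 counts, against 21.5% of EVd and 22.9% of EVu, which lowers the share of every other name in RMT1.

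Summed, the members made up a small part of the RMT1 EV cargo and a larger part of the PC12 cargo, where miR-25-3p held most of their counts. They held 0.117% ± 0.00952 of RMT1 counts (SD, n = 2), against 0.699% in EVd (exact Clopper-Pearson 95% interval 0.671% to 0.728%) and 1.67% in EVu (1.64% to 1.71%). In bulk vesicle RNA, fewer vesicles that carry a microRNA and fewer copies per vesicle cannot be told apart. With let-7 left out of the totals the shares were 0.373% ± 0.0277 in RMT1, against 0.891% in EVd and 2.17% in EVu. Most of the PC12 member counts were miR-25-3p, with 2003 counts in EVd and 6677 in EVu, which stood at rank 67 and 59 by count in RMT1, at rank 33 in EVd and at rank 20 in EVu. By seed, the family of miR-25 and miR-92 held 0.0785% ± 0.0129 of RMT1 (SD, n = 2), against 0.620% of EVd and 1.58% of EVu. The miR-19 seed held 0.00113% and 0.00223% of the RMT1 libraries, against 0.0686% of EVd and 0.0767% of EVu. The miR-17 seed names, made largely from the same transcripts, held 2.07% ± 0.0223 of RMT1 (SD, n = 2), 2.40% of EVd and 3.95% of EVu.

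**Figure D1:**
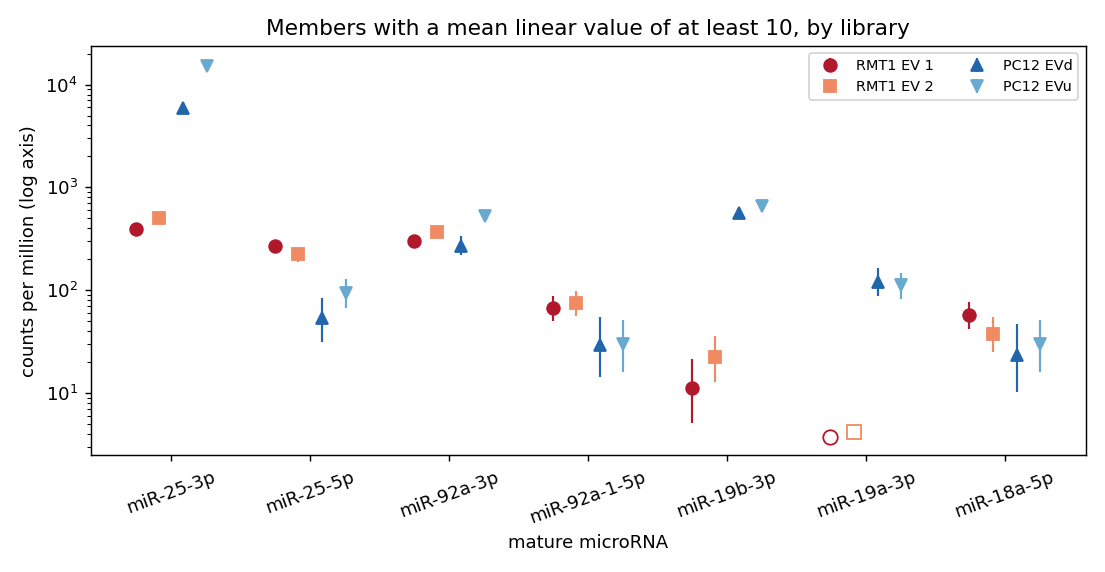
The 7 tested members in the table of all 4 libraries, on a log axis of CPM by library total, with a bar for the exact binomial 95% interval and an open marker at the floor of 3 counts where the count was 0. miR-25-3p is at 393 and 506 CPM in RMT1, against 5922 in EVd and 15285 in EVu, and miR-19a-3p is at 0 in both RMT1 libraries.

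Of the 14 members, 7 averaged at least 10 on the authors' linear scale and were tested between the lines. The other 7 were nearly empty in the table of all 4 libraries, and 3 of these (miR-19b-1-5p, miR-19b-2-5p and miR-92a-2-5p) were at 0 in each library. miR-18a-3p had 2 counts in EVu and 0 elsewhere, miR-19a-5p had 1 count in EVd, miR-92b-3p had 2 counts in RMT1 EV 1, and miR-92b-5p had 1 count each in RMT1 EV 1 and EVu. The order of the 7 tested members was the same in both RMT1 libraries, at mean CPM of 449.6 ± 80.2 for miR-25-3p, 334 ± 50.8 for miR-92a-3p, 246 ± 32.4 for miR-25-5p, 71.4 ± 5.48 for miR-92a-1-5p, 47.6 ± 14.1 for miR-18a-5p and 16.8 ± 7.82 for miR-19b-3p (SD, n = 2 each), with miR-19a-3p at 0. In RMT1 EV 1 the counting intervals of miR-92a-3p and miR-25-5p overlapped, as did those of miR-92a-1-5p and miR-18a-5p, and in RMT1 EV 2 those of miR-18a-5p and miR-19b-3p. In PC12 the order after miR-25-3p was miR-19b-3p, miR-92a-3p and miR-19a-3p in both libraries. In EVu the intervals of miR-19b-3p and miR-92a-3p overlapped, as did those of miR-19a-3p and miR-25-5p, and in both PC12 libraries those of miR-92a-1-5p and miR-18a-5p. Values are per microRNA and were not scaled by length, which runs from 20 to 24 bases among the members.

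Between the cell lines the members split. limma, fitted to the authors' log2 values of all 278 names that passed the filter, called 3 members higher in RMT1 EV (miR-25-5p, miR-92a-1-5p and miR-18a-5p) and 2 lower (miR-25-3p and miR-19a-3p), at an adjusted p under 0.05. Over all names tested 33.1% were called higher and 37.1% lower, so a split of this kind was common. The median difference was 1.31 on the log2 scale over the 7 members and -1.12 over all 278 names. The balance of calls depended on the scaling. By library totals the median over all names was -2.54, and 30.6% of calls were higher in RMT1, against 47.2% in the authors' scaling. Of the members 2 were then called higher and 3 lower, with a median of -0.18, and with a minimum mean of 100 in the authors' scaling their median was -0.81. For each member the difference by library totals is therefore given beside that in the authors' scaling.

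rno-miR-25-3p, the arm of miR-25 that is loaded in most tissues and represses Bcl2l11 and other death-promoting genes in human cells, stood at 393 and 506 CPM in the RMT1 libraries, against 5922 in EVd and 15285 in EVu. Both RMT1 libraries lay below both PC12 libraries, and EVu stood well above EVd. On the log2 scale the difference was -2.92 ± 0.30 (SE, limma adjusted p = 0.0381), and -4.41 by library totals (limma adjusted p = 0.0173). Without EVu it was -2.26, without RMT1 EV 1 -2.66 and without RMT1 EV 2 -3.19, and the call did not hold in these fits. Those without an RMT1 library took their error from EVd and EVu, not from the RMT1 pair. Their lost call therefore cannot be laid to the library left out. The direction was the same under all 12 alternatives. The blood-cell markers, a list of 6 names, moved the same way, at 22.5 and 19.5 CPM in RMT1, 94.6 in EVd and 1614 in EVu. Their defining name miR-451-5p was at 0 in both RMT1 libraries, and in RMT1 EV 2 only miR-486 was above 0, with 14 counts. In RMT1 EV 1 miR-486 held 11 of the 18 counts of the list. miR-144-3p was at 0 in EVd as well. The part of blood-derived RNA in the level of miR-25-3p was not tested.

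The other arm, rno-miR-25-5p, went the other way. It had 215 and 160 counts in RMT1, against 18 in EVd and 41 in EVu, so the lines did not overlap. The difference was 3.29 ± 0.08 on the log2 scale (SE, limma adjusted p = 0.00984) and 1.78 by library totals (limma adjusted p = 0.0316). Without RMT1 EV 1 it was 3.24 and without RMT1 EV 2 3.34. The call did not hold in these fits, which took their error from EVd and EVu. As a ratio of the 2 arms within a library, which no scaling between libraries can alter, miR-25-3p over miR-25-5p was 1.46 (1.22 to 1.75) and 2.27 (1.88 to 2.75) in RMT1, against 111 (70.2 to 188) in EVd and 163 (120 to 227) in EVu. In RMT1 EVs the 3p arm thus made up 59.4% and 69.4% of the miR-25 counts, against 99.1% in EVd and 99.4% in EVu. The PC12 table gave arm ratios of 79.2 for EVd and 128 for EVu.

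Opposite arms of 1 hairpin often differed in direction in these data. Of 70 hairpins with both arms tested, paired by name, 24 (34.3%) had arms of opposite sign between the lines, and the median distance between arms was 3.11 on the log2 scale. At 6.21, miR-25 stood at rank 14 of the 70. Its neighbour miR-106b stood at 4.56 (rank 24) with the same turn, since miR-106b-3p took 18.3% and 42.1% of the miR-106b counts in RMT1, against 91.7% in EVd and 89.2% in EVu. miR-93, from the same transcript, stood at 0.19 (rank 65), with miR-93-5p above 99% of its counts in all 4 libraries. miR-17-5p held 41.8% and 44.0% of the counts of miR-17-5p and miR-17-1-3p in RMT1, against 86.9% in EVd and 79.2% in EVu. miR-92a-3p held 81.5% and 83.1% of the counts of miR-92a-3p and miR-92a-1-5p in RMT1, against 90.2% in EVd and 94.6% in EVu, but 84.8% (77.9% to 90.2%) in EVd by the PC12 table. miR-17-5p and miR-92a-3p each come from 2 loci and the arms set beside them from chromosome 15 alone, so these last 2 shares are not those of 1 hairpin.

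**Figure D2:**
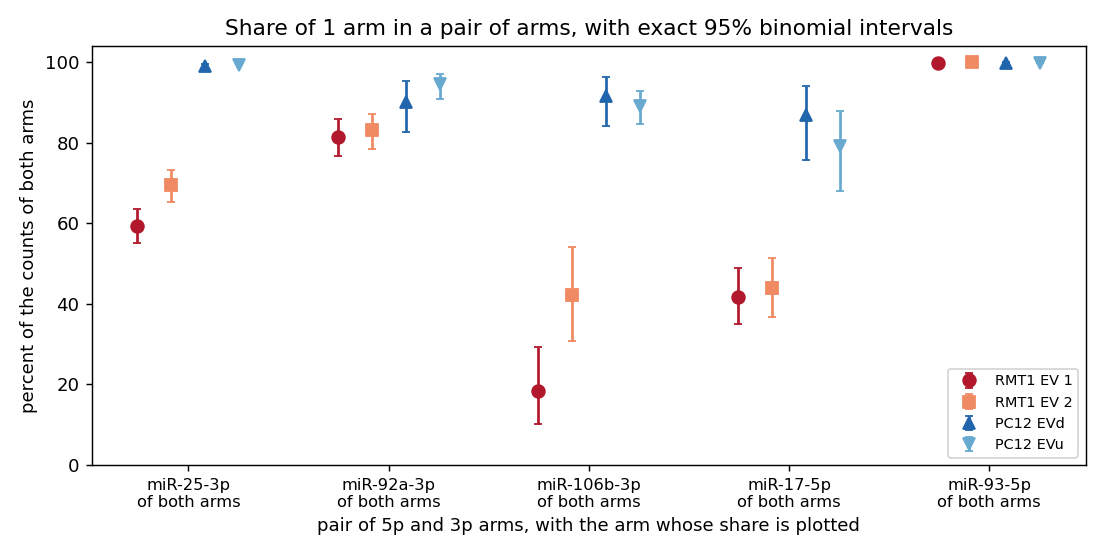
Percent of the summed counts of a 5p and a 3p arm that belong to the named arm, one point per library with its exact binomial 95% interval. miR-92a-3p and miR-17-5p each sum 2 loci. The miR-25-3p share is 59.4% and 69.4% in RMT1 EVs and above 99% in both PC12 libraries, while the miR-93-5p share stays above 99% in all 4.

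The miR-19 pair had few or no counts in RMT1. rno-miR-19b-3p had 9 and 16 counts in RMT1, against 191 in EVd and 286 in EVu. The lines did not overlap, and the RMT1 pair itself differed, with 11.3 and 22.3 CPM. miR-19b-3p was not called in the authors' scaling, at -3.77 ± 0.66 (SE, limma adjusted p = 0.0654), whereas by library totals it was -5.17 (limma adjusted p = 0.0371). Without RMT1 EV 1 it was -3.19 and without RMT1 EV 2 -4.34. Those fits drop the spread of the RMT1 pair and take their error from EVd and EVu, so they do not bear on the call. edgeR and DESeq2 on the recovered counts gave adjusted p of 1.8e-05 and 2.16e-05. By library totals, with the libraries of each line summed, miR-19b-3p was 37.3-fold lower in RMT1 than in PC12 (24.97 to 58.3). The interval of this fold for miR-19b-3p leaves out the spread between libraries.

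rno-miR-19a-3p, which differs from it at a single base, had 0 counts in both RMT1 libraries, against 41 in EVd and 49 in EVu. With the RMT1 pair set to the floor of 3 counts, the RMT1 level by library totals was 58.7-fold lower. That fold depends on the floor and leaves out the counting error of PC12. limma called it at an adjusted p of 0.000649, but 2 values of 0 give no spread, so this p does not rest on a measured error. edgeR gave an adjusted p of 0.000105 and DESeq2 0.00347. The ratio of miR-19b-3p to miR-19a-3p was 4.66 in EVd and 5.84 in EVu, and 8.03 in EVd and 7.67 in EVu in the PC12 table. Another name of the chromosome 15 transcript, miR-20a-5p, which is encoded there between the miR-19 hairpins, had 333 and 286 counts in RMT1, against 191 in EVd and 303 in EVu. Since miR-19b-3p is also encoded on chromosome X, its ratio to miR-20a-5p is not one within a single transcript. miR-19b-3p per miR-20a-5p was 0.0270 (0.012 to 0.052) and 0.0559 (0.032 to 0.092) in RMT1, against 1 (0.814 to 1.23) in EVd and 0.944 (0.800 to 1.11) in EVu. The PC12 table gave 1.64 (1.37 to 1.97) in EVd and 1.22 (1.05 to 1.42) in EVu. Between the lines miR-20a-5p differed by 0.88 on the log2 scale in the authors' scaling and by -0.62 by library totals. G and C make up 34.8% of miR-19a-3p, 39.1% of miR-19b-3p and 39.1% of miR-20a-5p. Any part of base content in these levels was not tested.

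The main arm of miR-92a, rno-miR-92a-3p, had 238 and 265 counts in RMT1, against 92 in EVd and 228 in EVu. The RMT1 libraries, at 298 and 370 CPM, lay between EVd at 272 and EVu at 522. limma did not call it, at 1.31 ± 0.28 (SE, limma adjusted p = 0.0821), and its direction turned by library totals, at -0.18 (limma adjusted p = 0.460). On the recovered counts edgeR put it at 1.11 (adjusted p = 0.00162) and DESeq2 at 1.29 (adjusted p = 0.0339). It was called higher under 4 of 12 alternatives. Although it shares its seed with miR-25-3p, the 2 names stood in different proportion in the lines: miR-25-3p per miR-92a-3p was 1.32 and 1.37 in RMT1, against 21.8 in EVd and 29.3 in EVu (16.7 in EVd and 21.5 in EVu in the PC12 table). The 5p arm from its chromosome 15 hairpin, miR-92a-1-5p, had 54 and 54 counts in RMT1, against 10 in EVd and 13 in EVu. Both RMT1 values lay above both PC12 values. The counting interval of RMT1 EV 1 (50.8 to 88.2 CPM) still overlapped those of EVd (14.2 to 54.4) and EVu (15.8 to 50.9). The difference was 2.76 ± 0.20 on the log2 scale, higher in RMT1 (SE, limma adjusted p = 0.0267), or 1.24 by library totals (limma adjusted p = 0.0281). It was called under all 11 alternatives that gave it a value, each on the table of all 4 libraries. The PC12 table puts it at 56.9 CPM in EVd and 46.9 in EVu, against 29.6 and 29.8 in the table of all 4 libraries. RMT1 stood at 67.6 and 75.3 CPM there and has no value in the PC12 table, so its distance by that counting is not known.

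rno-miR-18a-5p, which represses the oestrogen receptor gene in human breast cells, had 46 and 27 counts in RMT1, against 8 in EVd and 13 in EVu. All RMT1 values, 57.6 and 37.7 CPM, lay above 23.7 in EVd and 29.8 in EVu, while the counting intervals of the RMT1 and PC12 libraries overlapped. The PC12 table puts it at 46.5 CPM in EVd and 62.5 in EVu, but holds no RMT1 value. The separation of the lines thus rests on the table of all 4 libraries and could not be checked in the PC12 table. It was called higher by 2.31 ± 0.26 (SE, limma adjusted p = 0.0412), but 3 of 11 alternatives kept the call and by library totals it was 0.79 (limma adjusted p = 0.204). Leaving out any one of the 4 libraries lost the call, at differences from 2.08 to 2.53. Without an RMT1 library the error came from EVd and EVu instead of the RMT1 pair. By library totals, with the libraries of each line summed, the ratio of shares was 1.78 (1.08 to 3.04). That interval covers counting error only and leaves out the spread between libraries.

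**Figure D3:**
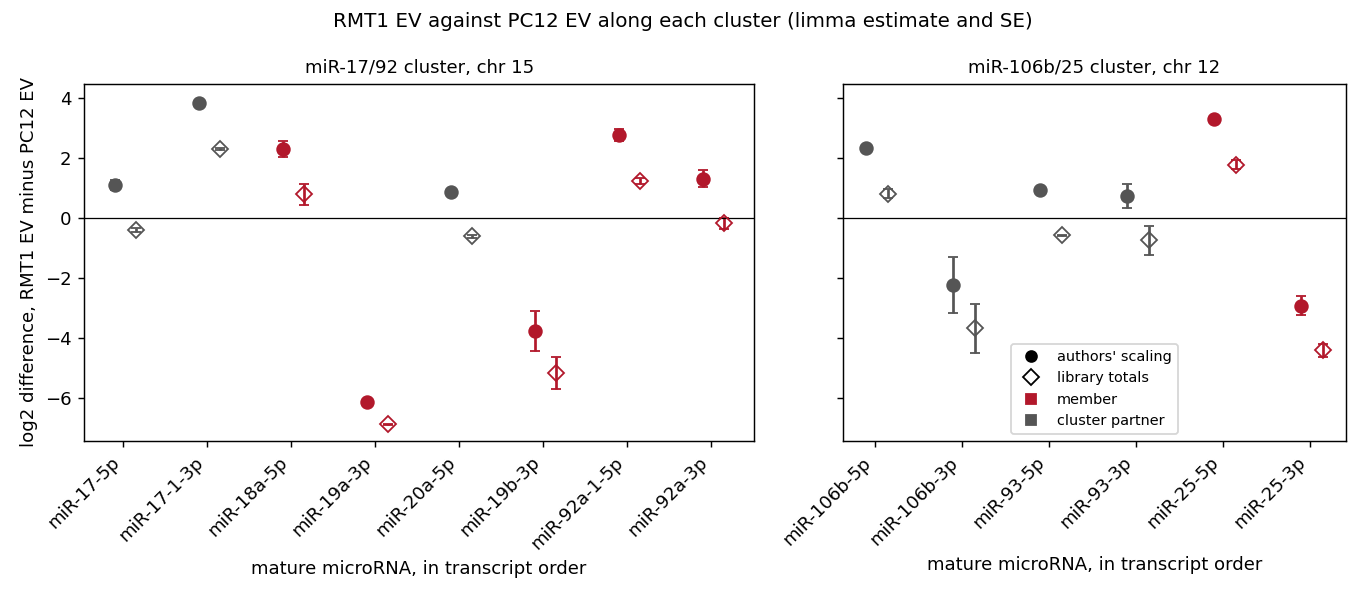
Log2 difference of RMT1 EV minus the mean of EVd and EVu with its limma SE, for the tested members (red) and the other tested names of their clusters (grey), by chromosome of the hairpin. Filled circles use the authors' scaling and open diamonds library totals, under which miR-92a-3p, miR-17-5p, miR-20a-5p, miR-93-5p and miR-93-3p change sign.

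Of the other names of these clusters and seeds, 15 of a list of 20 are in the table of all 4 libraries and 8 were tested, of which 5 were called higher in RMT1 and 0 lower, with a median of 1.01, where 33.1% of all names were higher and 37.1% lower. By library totals 1 of the 8 was higher and 2 lower, with a median of -0.49. miR-32-3p, among the 5, had 0 counts in EVd and 1 in EVu here but 27 in EVd and 11 in EVu in the PC12 table, so its call is uncertain. miR-106b-5p, also among the 5, stood at 72.6 and 61.4 CPM in RMT1, against 23.7 in EVd and 59.5 in EVu. The PC12 table puts it at 46.5 CPM in EVd and 78.1 in EVu and holds no RMT1 value to set beside them. Its difference was 2.32 (limma adjusted p = 0.0137), but 0.81 by library totals (limma adjusted p = 0.0672). miR-17-1-3p, the 3p arm of the chromosome 15 miR-17 hairpin, had 117 and 102 counts in RMT1, against 8 in EVd and 15 in EVu, a difference of 3.83 ± 0.10 (SE, limma adjusted p = 0.01003). This call held under all 12 alternatives. miR-93-5p, the most abundant name of the miR-25 transcript, had 15938 and 14539 counts in RMT1, against 7865 in EVd and 16873 in EVu. Its difference was 0.92 ± 0.11 (SE, limma adjusted p = 0.0446) in the authors' scaling but -0.58 by library totals (limma adjusted p = 0.00948), and miR-20a-5p turned likewise, at 0.88 (limma adjusted p = 0.0296) and -0.62 (limma adjusted p = 0.0272). In the authors' scaling both lost the call without either RMT1 library, where the error came from EVd and EVu. Those differences were 1.01 and 0.82 for miR-93-5p and 0.93 and 0.82 for miR-20a-5p. miR-93-5p also lost the call without EVd, at 0.58. miR-106b-3p, the arm with more counts in both PC12 libraries, had 13 and 32 counts in RMT1, against 88 in EVd and 214 in EVu, and was not called, at -2.23 ± 0.92 (SE, limma adjusted p = 0.188). miR-25-3p per miR-93-5p was 0.0197 and 0.0250 in RMT1, against 0.255 in EVd and 0.396 in EVu.

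Among 116 names with at least 10 counts in each library, those closest to miR-92a-3p over the 4 libraries were miR-30e-3p, miR-30d-5p and miR-93-5p, with root-mean-square differences of 0.19, 0.23 and 0.23 in centred log2 CPM. Those closest to miR-25-3p were miR-30c-5p, miR-15b-3p and miR-3099, at 0.30, 0.34 and 0.38. miR-19b-3p, with 9 counts in RMT1 EV 1, did not meet that minimum.

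The PC12 table, with raw counts of EVd and EVu alone, lists 12 of the members among 594 names, with totals of 386957 counts in EVd and 512244 in EVu. These libraries have no replicates, so values are given with counting intervals and no test. Among the 11 members that averaged 10 counts or more, the EVd level was higher by 2-fold or more for 3 and lower by as much for 2, against 13.8% higher and 6.99% lower of all 472 microRNAs with such a mean. The median log2 ratio was 0.12 over these members and 0.06 over all.

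The seed family of miR-25 divided in the PC12 table, but through miR-92b-3p alone. That name had 0 counts in both PC12 libraries of the table of all 4 libraries. miR-25-3p had 2059 counts in EVd and 7024 in EVu, a log2 ratio of -1.37 (-1.44 to -1.30), or 2.58-fold lower in EVd. miR-92a-3p had 123 counts in EVd and 327 in EVu, at -1.004 (-1.32 to -0.70), while miR-92b-3p had 113 in EVd and 70 in EVu, at 1.09 (0.65 to 1.55). miR-92b-3p per miR-92a-3p was thus 0.919 in EVd, against 0.214 in EVu. The blood-cell list summed to 163 CPM in EVd and 1751 in EVu in this table, and its part in the lower miR-25-3p and miR-92a-3p of EVd was not tested. Names of the miR-25 transcript stood on the same side, with log2 ratios of -0.75 for miR-93-5p and -0.83 for miR-106b-3p.

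The miR-19b hairpins also divided by arm. miR-19b-1-5p had 193 counts in EVd and 58 in EVu, at 2.13 (1.71 to 2.59), and miR-19b-2-5p had 39 in EVd and 15 in EVu, at 1.75 (0.89 to 2.75). The interval of miR-19b-3p, the 3p arm of both hairpins, held 0, at 0.12 (-0.10 to 0.34) from 321 counts in EVd and 391 in EVu. That of miR-19a-3p, from another hairpin, held 0 as well, at 0.05 (-0.58 to 0.68) from 40 in EVd and 51 in EVu. The intervals of miR-92b-5p at 0.70, miR-92a-1-5p at 0.27, miR-18a-5p at -0.42 and miR-25-5p at -0.67 also held 0. miR-18a-3p had 1 count in EVd and 13 in EVu, under the minimum.

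The deposited tables disagree on the members that were higher in EVd. miR-19b-1-5p, miR-19b-2-5p and miR-92b-3p had 0 counts in both PC12 libraries of the table of all 4 libraries, so their values are uncertain. There 7 members averaged 10 counts or more. A fold of 2 or more upward in EVd was reached by 0 of them, against 10.6% of all 246 such names, and downward by 1, miR-25-3p, again at -1.37, against 13% of all names. miR-92a-3p stood at -0.94 in that table and miR-19b-3p at -0.21.

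**Figure D4:**
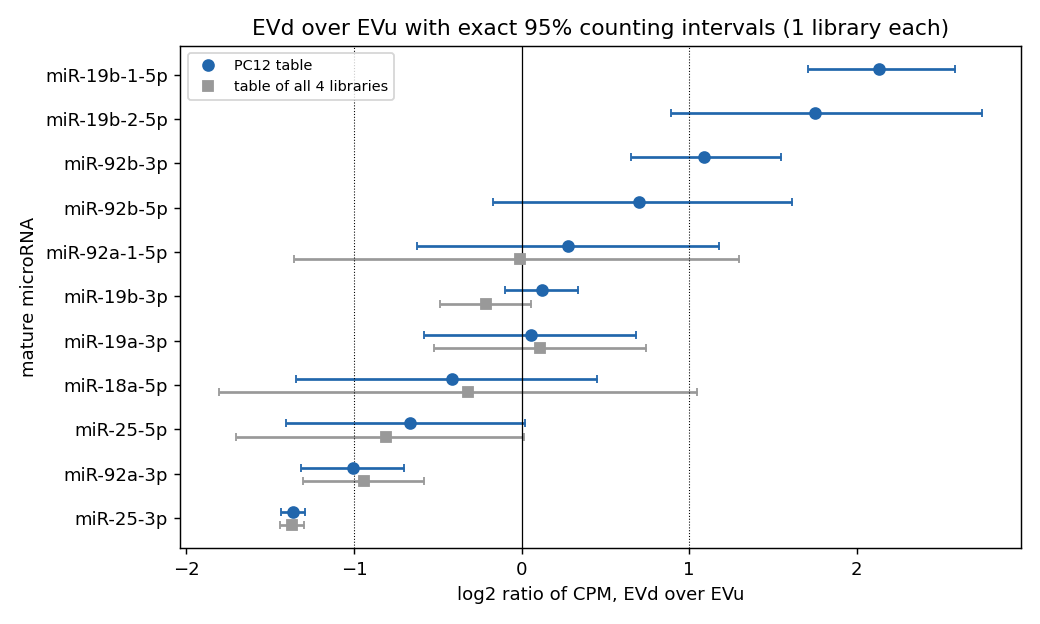
Log2 ratio of CPM, EVd over EVu, for the members with exact binomial 95% intervals, in the PC12 table and in the table of all 4 libraries, with dotted lines at a fold of 2. miR-25-3p is at -1.37 in both, and miR-19b-1-5p, miR-19b-2-5p and miR-92b-3p have a value in the PC12 table alone.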

How the data were processed

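Small RNA libraries were made with QIAzol, the miRNeasy Mini kit and the QIAseq miRNA kit, per the labels' protocols. The PC12 table holds raw counts that the authors deposited per name. The table of all 4 libraries holds log2 values that the authors normalized over these libraries, per the file headers. Turned back to the linear scale and divided by the smallest step of each library, all values were whole to within 0.1, which gave the recovered counts. The submitters' processing notes name the build mm10, a mouse build, although names are of rat. The aligner, the counting program, the scaling method and whether counts are reads or unique molecules are not given in the labels or files used.

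RMT1 EV minus the mean of EVd and EVu was fitted by limma 3.58.1 (R 4.3.3) with a mean-variance trend and 3 groups, over 278 names with a mean linear value of at least 10. The residual spread comes from the RMT1 pair alone (1 degree of freedom, plus 0.547 prior degrees), and 46 of the names were at 0 in both libraries of a line. P-values were adjusted by Benjamini-Hochberg over all 278 names. EVd over EVu used CPM plus a pseudocount of 1 CPM. Intervals are exact binomial 95% intervals. Alternatives were other scalings, filters, libraries left out, edgeR 4.0.16 and DESeq2 1.42.0 on recovered counts. Without an RMT1 library, EVd and EVu were fitted as 1 group and the lone RMT1 library was assumed to vary like them. Named microRNAs were all members, cluster and seed partners with at least 100 counts in a library or counted in a list, and the 3 closest names by root-mean-square difference. The members and lists were chosen with earlier results of these data known.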

Additional observations from a re-analysis of the deposited data

How the results depend on the processing

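Calls between the lines depended on the RMT1 pair, the filter and the scaling, and the cause of each change was not tested. Without an RMT1 library the error came from EVd and EVu, so such calls also reflect a changed error. Over all names, limma called 92 higher and 103 lower in RMT1 EV, and 53 to 85 higher with 1 library left out (56 without RMT1 EV 1, 53 without RMT1 EV 2). With no filter 192 were lower. Scaled by library totals 64 were higher and 145 lower, and edgeR called 100 higher and 145 lower. Of the members 3 were higher and 2 lower, and some calls in each direction were lost with a library left out. edgeR called 4 higher and 3 lower. DESeq2, and limma with EVd and EVu as 1 group, each called 3 higher and 3 lower. With no filter 4 were lower, among them miR-18a-3p with 2 PC12 counts and miR-19a-5p with 1. Both were at 0 in RMT1, so those calls rest on no measured error. By library totals 5 names changed sign: miR-92a-3p at -0.18, miR-17-5p at -0.40, miR-20a-5p at -0.62, miR-93-5p at -0.58 and miR-93-3p at -0.75. Other member and partner values kept their side of the threshold 119 times, lost it 29 times and gained it 20 times.

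Members at least 2-fold higher in EVd numbered 3, but 0 in the table of all 4 libraries and 1 at a minimum mean of 100 counts. Those lower numbered 2, but 1 in the table of all 4 libraries and 1 with a pseudocount of 10 CPM. Member shares without let-7 in the total were 0.373% in RMT1, 0.891% in EVd and 2.17% in EVu. From the PC12 table they were 0.770% in EVd and 1.58% in EVu. The RMT1 share ran from 0.110% to 0.123% with 1 library left out. No paired analysis was possible because the RMT1 libraries are numbered 1 and 2 while EVd and EVu are single libraries with no shared number. Of 16 ratios within PC12 libraries recomputed from the PC12 table, 9 moved. Of the tested members, miR-18a-5p, miR-19a-3p and miR-92a-1-5p had under 60 counts in each of the 4 libraries, which limits their precision.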
